A study of Mus musculus with 8 samples.

Results

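Ccl2, Ccl6, Ccl7 and Ccl24 are 4 genes for secreted chemokines of the CC family, taken by name from a table of 2000 genes measured in 53528 cells. Their levels were read in C1q macrophages, monocytes, neutrophils, dendritic cells, fibroblasts and hepatoma cells, each class gated by marker genes, with T and NK cells added as a class not known for these ligands. The cells came from tumours of Hepa1-6, a mouse hepatoma line, read cell by cell from 3′ cDNA libraries made in droplets (DNBelab C4). The labels give 4 groups: tumours of unedited (WT) Hepa1-6 cells with PBS injected into the peritoneum, the same with PD1 antibody, Soat1-edited tumours with PBS, and Soat1-edited tumours with PD1 antibody. The entry titles write KO for the edited tumours while the genotype field writes knockdown, and the host strain and age were not given in the sources used here. Each group has a cDNA and an oligo entry, counted as 1 sample, so the 8 entries make 4 samples.

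The cell names carry a last number from 1 to 6 that divides the table into 6 sets of 7569 to 11813 cells, and nothing ties a set to a group. The table was therefore treated as 1 pooled sample, no genotype or treatment was compared, and the text gives no p-value because cells of the same sample do not count as replicates. The deposited values are the natural log of 1 plus a gene's unique molecular identifiers (UMIs) per 10000. In set 1 (9370 cells) every value was a whole UMI count within 0.01, and levels are given as UMIs per 1000000 UMIs of a class (CPM) with exact 95% Poisson intervals, which cover counting error only. The other 5 sets had been changed further, with values below 0 in every cell, and are given as means of the deposited values. Cell names hold no barcode sequence, so barcodes shared between sets could not be counted.

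CC chemokines are small secreted proteins that attract leukocytes through receptors on their surface. Ccl2 (MCP-1) and Ccl7 (MCP-3) bind Ccr2 and draw monocytes out of the marrow and into inflamed tissue and tumours. Ccl6 is a rodent chemokine that binds Ccr1 and is made by myeloid cells, and Ccl24 (eotaxin-2) binds Ccr3 on eosinophils and is a product of macrophages.

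The coding stretch that names the family is shown for each gene because these 4 messages had to be told apart by the counting. Each line holds 54 bases of coding sequence from GENCODE M21 (GRCm38), with the adjacent pair of cysteine codons in capitals. In Ccl24 2 such pairs are in frame and the second is shown.
Ccl2: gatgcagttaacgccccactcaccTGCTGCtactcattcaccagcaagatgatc
Ccl6: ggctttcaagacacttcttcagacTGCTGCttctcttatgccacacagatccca
Ccl7: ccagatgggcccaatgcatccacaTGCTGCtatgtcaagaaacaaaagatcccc
Ccl24: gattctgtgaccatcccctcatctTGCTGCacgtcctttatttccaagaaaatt
The capitals read the same in all 4 genes and the bases around them differ. The pair begins at codon 34 in Ccl2, 50 in Ccl6, 33 in Ccl7 and 33 in Ccl24, and the coding sequences without the stop codon are 444, 348, 291 and 357 bases long. None of the 752 to 1391 stretches of 50 bases in each gene's protein-coding transcripts was found in a transcript of another gene.

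RefSeq (GRCm38.p6) places Ccl2 at chr11:82035577-82037452 and Ccl7 next to it at chr11:82045712-82047525, 8259 bases further on. Ccl11, Ccl12, Ccl8 and Ccl1 follow in that order on the same chromosome. Ccl6, at chr11:83587886-83593087, lies beside Ccl9 in a second group of chemokine genes, and Ccl24 stands apart at chr5:135569935-135573123. The submitters' processing notes name both GRCh38 and mm10, so these positions come from the annotation and not from the table.

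A promoter sequence was at hand for Ccl6, and it is shown with that of its neighbour Ccl9 because neutrophils held Ccl6 and hardly any Ccl9, as given below. Both run from 250 bases before to 50 bases after the start of the RefSeq gene on the minus strand (Ccl6 chr11:83593038-83593337, Ccl9 chr11:83578587-83578886). Capitals mark AGGAAG on either strand, letters known from sites of PU.1, a myeloid transcription factor.
Ccl6: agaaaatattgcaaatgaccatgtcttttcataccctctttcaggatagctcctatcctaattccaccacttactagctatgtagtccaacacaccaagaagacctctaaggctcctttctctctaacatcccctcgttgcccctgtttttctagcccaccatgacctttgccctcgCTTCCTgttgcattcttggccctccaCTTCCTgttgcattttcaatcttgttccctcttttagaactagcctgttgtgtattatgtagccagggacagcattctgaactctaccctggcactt
Ccl9: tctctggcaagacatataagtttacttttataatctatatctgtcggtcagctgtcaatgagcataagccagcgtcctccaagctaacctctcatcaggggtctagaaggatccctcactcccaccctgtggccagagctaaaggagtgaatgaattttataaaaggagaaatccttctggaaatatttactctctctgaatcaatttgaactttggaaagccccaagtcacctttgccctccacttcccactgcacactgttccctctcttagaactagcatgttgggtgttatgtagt
The Ccl6 window holds 2 matches, both on the other strand, and the Ccl9 window holds 0. The windows of Ccl12 and Ccl8, of which neutrophils had 1 and 0 UMIs, hold 3 and 1. Of 32851 promoters of that length, 35.4% hold at least 1 match and 8.62% at least 2, so the matches are a description and no site was tested.

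C1q macrophages were cells with at least 2 of C1qa, C1qb and C1qc above a value of 1 ("on"), and they numbered 3860, with 460 to 846 per set. Mrc1, Vcam1 and Ms4a7, which were not used in the gate, stood at 451, 1691 and 210 CPM in these cells of set 1 and at 102, 13.4 and 5.34 in monocytes. Cd163, another tissue macrophage marker, stood at only 12.3 in the C1q macrophages. Monocytes (at least 2 of Ly6c2, Ccr2, Chil3, Vcan, Ms4a4c and F10 on) numbered 1189, neutrophils 524, dendritic cells 465, fibroblasts 818 and T and NK cells 12460. Another 455 cells passed both the macrophage and the monocyte gate and were kept apart. Hepatoma cells were 23241 cells in no other gate with a mean value of Afp, Alb and Trf of at least 3. That class is a range of a score: 20.1% of the 32063 cells in no other gate lay within 0.25 of the limit. Afp, Alb and Trf together reached 1461 to 5912 CPM in the other classes of set 1, against 13584 in hepatoma cells, so these hepatoma genes were read in every class.

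The background for the chemokines was read in T and NK cells and in hepatoma cells. In set 1, T and NK cells (median 4688 UMIs per cell) held 2.35 CPM of Ccl2, 8.66 of Ccl6, 1.86 of Ccl7 and 15.1 of Ccl24. Hepatoma cells (median 19556 UMIs) held 1.66, 4.32, 2.05 and 9.19. Ccl24 made up 54.0% of the UMIs of the 4 genes in T and NK cells and 53.4% in hepatoma cells. Shares of this kind count UMIs of a 3′ library and are not corrected for transcript length. In CPM, the tumour cells themselves thus showed each chemokine at or near the level of a class that is not known to make it. The share of cells with a UMI was higher in these deeper cells. It was 3.48% for Ccl2, 8.30% for Ccl6, 4.66% for Ccl7 and 18.8% for Ccl24. T and NK cells had 1.04, 4.54, 1.19 and 6.93%. With all cells thinned to the same depth, the shares were 0.294, 0.450, 0.372 and 0.998% against 0, 1.11, 0.159 and 1.59%. Whether tumour cells make these ligands was not tested.

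**Figure D1:**
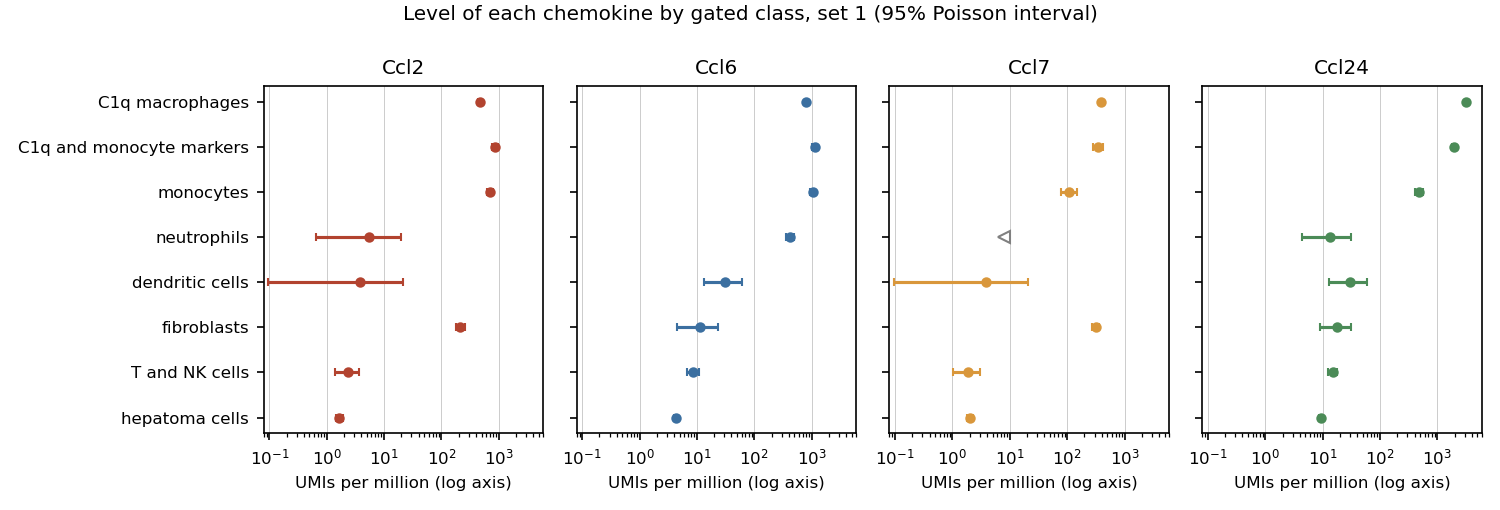
Level of each chemokine in CPM (x axis, log scale) in each gated class of set 1, where points are summed UMIs over the class total and bars are exact 95% Poisson intervals. The open triangle marks the level that 3 UMIs would give where 0 were counted. Ccl24 is highest in C1q macrophages (3216), Ccl6 is high in neutrophils too (424), and Ccl7 and Ccl2 are high in fibroblasts (315 and 214).

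Ccl24 was read mainly in the C1q macrophages. These cells held 7842 of the 10710 Ccl24 UMIs of set 1 (73.2%), which is 3216 CPM (3145 to 3288). Of the 613 macrophages, 78.5% (exact binomial interval 75.0 to 81.7%) had at least 1 Ccl24 UMI at a median depth of 2760 UMIs, against 6.93% of T and NK cells at a median of 4688. Cells with both macrophage and monocyte markers stood at 1971 and monocytes at 481. Neutrophils (13.4) and fibroblasts (17.7) lay at the level of T and NK cells within counting error. Dendritic cells stood at 30.4 from 8 UMIs, 2.02 times T and NK cells with an interval (0.851 to 4.10) that includes no difference. Their mean deposited value was above that of T and NK cells in 6 of 6 sets, by 0.0490 to 0.175. The mean deposited value in C1q macrophages ran from 2.00 in set 4 to 2.94 in set 5, with a median of 2.55. In monocytes it ran from 0.567 to 0.775 with a median of 0.685. The 2 ranges did not overlap, and in each set the cells with both marker kinds (1.37 to 2.16) lay between them.

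Ccl6 was shared by 3 myeloid classes. Its level in set 1 was 1039 CPM in monocytes (939 to 1148), 1123 in cells with both marker kinds, 790 in C1q macrophages (755 to 826) and 424 in neutrophils (361 to 496). At least 1 UMI was seen in 71.2% of monocytes, 48.5% of C1q macrophages and 44.7% of neutrophils, whose median depths were 2988, 2760 and 1545 UMIs, against 4.54% of T and NK cells. In neutrophils Ccl6 made up 158 of the 165 UMIs of the 4 chemokines (95.8%). Thinned to 1000 UMIs per cell, a UMI was left in 52 of 104 monocytes, 29.7% of C1q macrophages, 28.9% of neutrophils and 1.11% of T and NK cells. Over the 6 sets the mean deposited value was 1.16 to 1.71 in monocytes, 0.828 to 1.59 in neutrophils and 0.926 to 1.38 in C1q macrophages, and these ranges overlapped. The order of macrophages and neutrophils turned with the scale: CPM were 1.86 times higher in macrophages (1.58 to 2.20), while the mean deposited value was higher in neutrophils in 5 of 6 sets. In set 1, 1 macrophage held 302 of the 1927 Ccl6 UMIs of its class.

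Ccl6 in dendritic cells and fibroblasts was low. Dendritic cells held 30.4 CPM, 3.51 times the level in T and NK cells (1.46 to 7.31), and their mean deposited value was above that of T and NK cells in 6 of 6 sets. Over all sets, Ccl6 was on in 32.0% of the 25 dendritic cells with Cd209a on, a marker of monocyte-derived and conventional type 2 cells. It was on in 6.59% of the 182 with Xcr1 or Clec9a, which mark cross-presenting cells. It was on in 5.80% of the 224 with at least 2 of Ccr7, Fscn1 and Ccl22, and in none of the 42 with Siglech, a plasmacytoid marker. In set 1 only 2 cells with Cd209a were used, holding 4 Ccl6 UMIs. Fibroblasts, at 11.2 CPM, lay within counting error of T and NK cells.

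Ccl2 was found in macrophages, monocytes and fibroblasts. Its level in set 1 was 856 CPM in cells with both marker kinds, 695 in monocytes (613 to 785), 467 in C1q macrophages (440 to 495) and 214 in fibroblasts (179 to 253). Neutrophils had 2 UMIs and dendritic cells 1, which left them within counting error of T and NK cells in set 1. The mean deposited value in neutrophils was above that of T and NK cells in 6 of 6 sets, by 0.0163 to 0.109. The share of cells with a UMI was 37.0% in C1q macrophages, 34.6% in monocytes and 31.2% in fibroblasts, whose median depth of 6400 UMIs was the greatest of the 3, and 1.04% in T and NK cells. Mean deposited values over the sets were 0.589 to 0.877 in C1q macrophages (median 0.756), 0.631 to 0.961 in monocytes (median 0.689) and 0.177 to 0.563 in fibroblasts (median 0.370). Fibroblasts were below the macrophages in each set. Ccl2 was packed in few cells: 10 of the 104 monocytes held 68.1% of the monocyte UMIs. The 10 monocytes richest in each other gene held 87.8% for Ccl7, 78.9% for Ccl24 and 50.1% for Ccl6.

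Ccl7 was read in macrophages and fibroblasts, and at a lower level in monocytes. C1q macrophages held 394 CPM (370 to 420), cells with both marker kinds 348, fibroblasts 315 (272 to 362) and monocytes 110 (78.6 to 149). Neutrophils had 0 UMIs among 114 cells, which allows up to 9.91 CPM by the Poisson interval, and dendritic cells had 1. Of the fibroblasts, 44.2% had at least 1 Ccl7 UMI, against 29.4% of C1q macrophages, 14.4% of monocytes and 1.19% of T and NK cells. The macrophage level was 1.25 times the fibroblast level in CPM (1.07 to 1.47), but the mean deposited value was higher in fibroblasts (0.691 to 0.995) than in macrophages (0.410 to 0.702) in 6 of 6 sets. Fibroblasts had a median of 6400 UMIs per cell and macrophages 2760, and thinned to 1000 UMIs a Ccl7 UMI was left in 20.8% of fibroblasts and 20.6% of macrophages. In fibroblasts Ccl7 made up 56.5% and Ccl2 38.3% of the UMIs of the 4 genes.

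**Figure D2:**
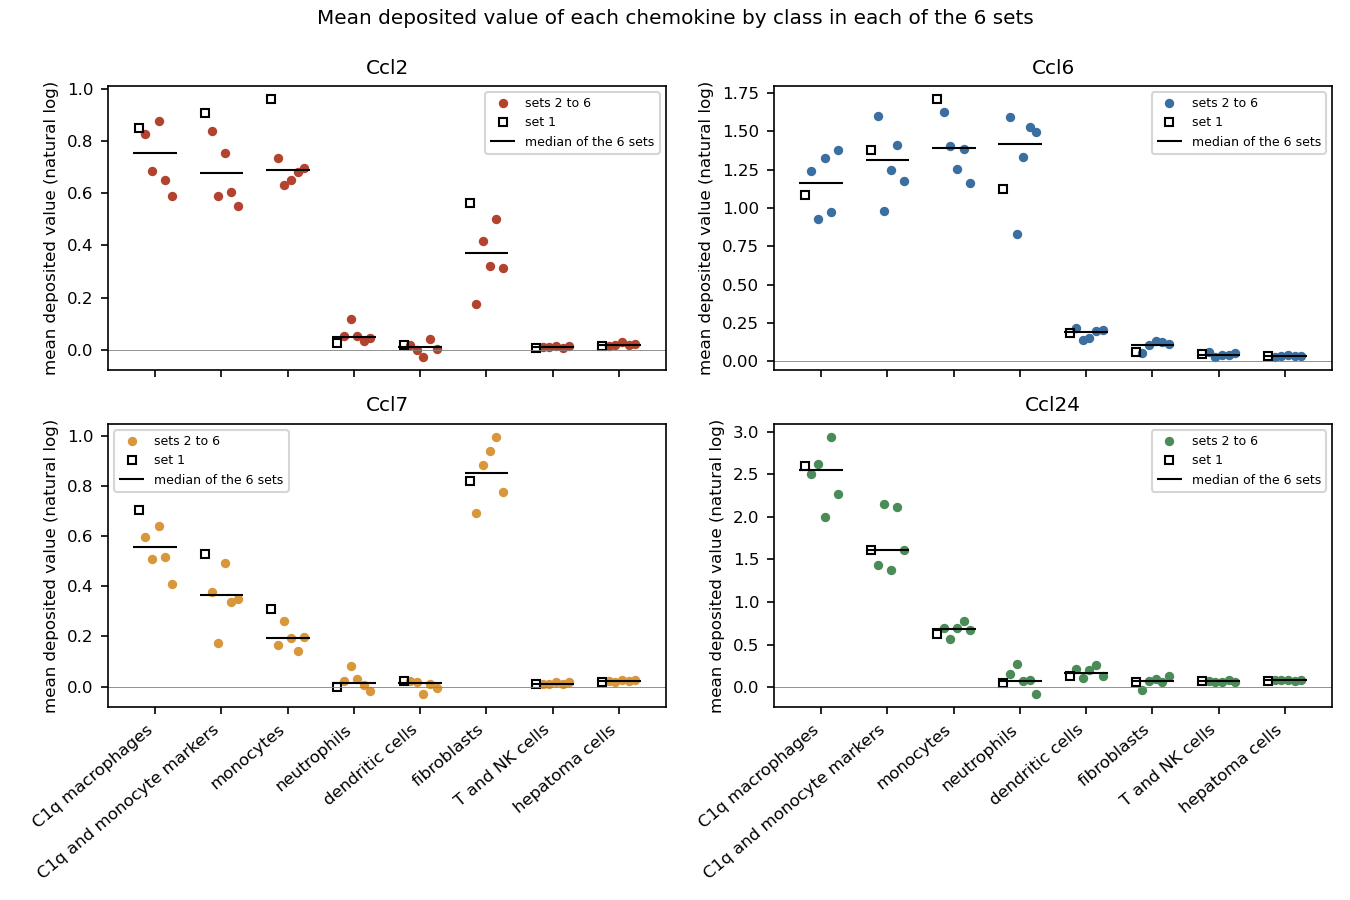
Mean deposited value (y axis, natural log scale, a separate range for each gene) of each chemokine in each class, where the open square is set 1, filled points are sets 2 to 6 and the line is the median of the 6 sets. In every set Ccl24 is higher in C1q macrophages than in monocytes, and Ccl7 is higher in fibroblasts than in C1q macrophages.

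The contrast of C1q macrophages with monocytes separated the ligands. Ccl24 was 6.69 times higher in macrophages in set 1 (5.77 to 7.79) and Ccl7 3.60 times (2.63 to 5.05). In the deposited values both were higher in macrophages in 6 of 6 sets. Ccl2 was at 0.672 times the monocyte level (0.587 to 0.772) and Ccl6 at 0.760 times (0.681 to 0.850). Neither of these held across the sets: the mean Ccl2 value was higher in macrophages in 3 of 6 sets and the mean Ccl6 value in 2 of 6. Without the 10 cells richest in Ccl2 in each class, the Ccl2 ratio was 1.41. With the cells of both marker kinds counted as monocytes, the ratios of Ccl7 and Ccl24 were 1.90 and 2.94. Without the 10 richest cells of each class they were 19.6 and 23.6. The 10 cells are a larger part of the 104 monocytes than of the 613 macrophages.

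Folds of 2 were common among all genes in these contrasts. Of 996 genes with at least 20 UMIs over both classes, 24.0% were at least 2-fold higher in C1q macrophages than in monocytes, among them 2 of the 4 chemokines (Ccl7 and Ccl24). Another 16.0% were at least 2-fold lower, with 0 of the 4. Against neutrophils, 23.1% of 1034 genes were higher, with 3 of the 4 (Ccl2, Ccl7 and Ccl24), and 26.3% were lower, with 0 of the 4. Against fibroblasts, 31.0% of 1255 genes were higher, with 3 of the 4 (Ccl2, Ccl6 and Ccl24), and 32.4% were lower, with 0. The median log2 ratio of the 4 was 0.72 against monocytes, where that of all genes was 0.36. It was 3.57 against fibroblasts, where that of all genes was 0.239. For neutrophils these medians were 6.9997 and -0.184. The neutrophil median of the 4 rests on few counts, as neutrophils had 2 UMIs of Ccl2 and 0 of Ccl7.

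The neighbours of Ccl2 and Ccl7 on chromosome 11 were divided among cell classes. Ccl8 (MCP-2), another monocyte attractant, stood at 699 CPM in C1q macrophages, 72.6 in cells with both marker kinds, 49.8 in fibroblasts (31 UMIs) and 5.34 in monocytes (2 UMIs). Ccl12 (MCP-5), a ligand of Ccr2, stood at 107 in C1q macrophages and 40.1 in monocytes, with 0 UMIs in fibroblasts (up to 5.92 allowed). Ccl11 (eotaxin-1), which shares the receptor Ccr3 with Ccl24, stood at 225 in fibroblasts and had 0 UMIs in C1q macrophages, which allows up to 1.51 CPM. Ccl1 stood at 76.6 in T and NK cells and 2.87 in C1q macrophages, where 1 cell held all 7 UMIs. The order along the chromosome thus ran from a pair held by macrophages, monocytes and fibroblasts (Ccl2 and Ccl7), through a gene read in fibroblasts, to a pair read mostly in macrophages (Ccl12 and Ccl8) and a gene read in lymphocytes. Ccl9, beside Ccl6, was 273 in monocytes and 154 in C1q macrophages, but neutrophils had 1 Ccl9 UMI against 158 of Ccl6.

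Of 14 other chemokine genes with enough UMIs, 4 were at least 2-fold higher in C1q macrophages than in monocytes (Ccl8, Ccl12, Cxcl1 and Cxcl15), where 24.0% of all genes were. Cxcl1 and Cxcl15 stood at 63.2 and 67.7 CPM in C1q macrophages and higher, at 159 and 232, in hepatoma cells, and the part of hepatoma RNA in their ratios was not tested. Another 4 of the 14 were lower (Ccl3, Ccl5, Cxcl2 and Cxcl3), where 16.0% of all genes were. The median log2 ratio of the 14 was 0.14, and that of all genes was 0.36. Among the receptors, Ccr2 belongs to the monocyte gate, so its 823 CPM in monocytes and 97.2 in C1q macrophages are a description of that gate. T and NK cells, gated on other genes, held 79.3. Ccr1, the receptor of Ccl6, stood at 240 in C1q macrophages, 200 in monocytes and 263 in neutrophils, which are the classes that held Ccl6. It had 0 UMIs in dendritic cells, which allows up to 14.0 CPM. Ccr3, the receptor of Ccl24, was not analysed here.

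In set 1, Ccl24 and Ccl6 stood highest in different C1q macrophages. The macrophages of set 1 were divided by Cxcl9, a chemokine induced by interferon gamma, and by Arg1, the arginase of wound-type macrophages. With Arg1 on and Cxcl9 off (108 cells), Ccl6 stood at 1987 CPM (1849 to 2132) and Ccl24 at 1689 (1562 to 1824). The macrophage with 302 Ccl6 UMIs was among them, and without it Ccl6 stood at 1244 (1134 to 1362). With Cxcl9 on and Arg1 off (248 cells), Ccl6 stood at 279 (250 to 311) and Ccl24 at 4198 (4081 to 4316). With both on (46 cells) the values were 354 and 4247, and with both off (211 cells) 1086 and 2187. Over the 6 sets the mean deposited value of Ccl6 was 1.04 to 1.77 with Arg1 alone (median 1.65), 0.736 to 1.03 with Cxcl9 alone (0.779), 0.747 to 1.60 with both (1.32) and 0.987 to 1.49 with neither (1.27). The mean value of Ccl24 was 1.68 to 3.05 with Arg1 alone, 2.49 to 3.17 with Cxcl9 alone, 2.78 to 3.39 with both and 1.54 to 2.39 with neither. For Ccl6 the cells with both on thus overlapped every other state, while for Ccl24 they lay above the cells with neither. For Ccl24 the cells with both on had the highest mean value of these states in each of the 6 sets. For Ccl6 they had it in set 5 only, at 1.46.

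Ccl2 and Ccl7 moved less over the same cells. Ccl2 was 707 CPM with Arg1 alone, 351 with Cxcl9 alone, 574 with both and 504 with neither. Ccl7 was 461, 300, 379 and 516 in the same order. The lowest CPM of each was in the cells with Cxcl9 alone, as for Ccl6. Over the 6 sets the mean value of Ccl2 was 0.696 to 1.21 with Arg1 alone and 0.452 to 0.694 with Cxcl9 alone. That of Ccl7 was 0.589 to 0.986 and 0.247 to 0.507, so for neither gene did the ranges overlap. In set 5 the lowest mean value was in the cells with both on, at 0.533 for Ccl2 and 0.304 for Ccl7.

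Taken over all 613 cells, macrophages with Cxcl9 on held 2.09 times the Ccl24 of those with it off (1.99 to 2.20) and 0.205 times the Ccl6 (0.183 to 0.230). Leaving out the macrophage with 302 Ccl6 UMIs gave 0.253 for Ccl6, and a gate value of 0.5 gave 0.358. Ccl2 stood at 0.658 times and Ccl7 at 0.624 times (0.411 without the 10 richest cells of each side). All 4 directions were seen in 6 of 6 sets: the differences of mean values, on minus off, were 0.629 to 1.11 for Ccl24, -0.615 to -0.0484 for Ccl6, -0.476 to -0.125 for Ccl2 and -0.497 to -0.230 for Ccl7. Cells with Cxcl9 on were deeper, with a median of 3202 UMIs against 2327. With the chemokine counts thinned to 1000 UMIs per cell the 4 directions were the same. The Cxcl9 call was left at full depth, so this does not remove the effect of depth on that call. Of 962 genes, 7.48% were at least 2-fold higher with Cxcl9 on, Ccl24 among them, and 9.25% were at least 2-fold lower, Ccl6 among them.

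**Figure D3:**
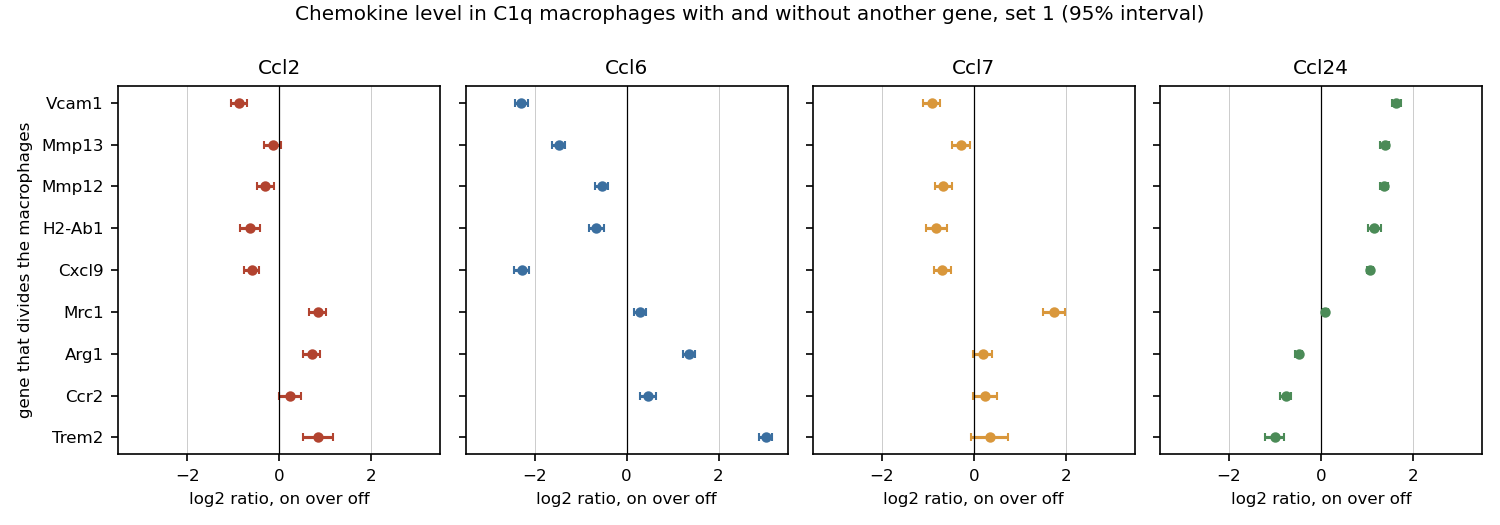
Log2 ratio of each chemokine's level (CPM, x axis) in C1q macrophages of set 1 with a second gene on over those with it off (y axis), with 95% intervals for counting error. Ccl24 lies to the right and Ccl6 to the left for Vcam1, Mmp13, Mmp12, H2-Ab1 and Cxcl9, and the order turns for Trem2, Ccr2 and Arg1.

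Vcam1, an adhesion molecule of tissue macrophages, gave a similar division. Macrophages with Vcam1 on (420 of 613) held 3982 CPM of Ccl24 and those with it off 1277, a ratio of 3.12 (2.91 to 3.35). Ccl6 stood at 376 with Vcam1 on and 1838 with it off (0.205 times). At a gate value of 0.5 these ratios were 4.95 and 0.402. Ccl2 and Ccl7 were at 0.542 (0.331 with Leiden clusters) and 0.531 times, and all 4 directions were seen in 6 of 6 sets. Depth was close here, with medians of 2868 and 2661 UMIs.

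Ccl24 was also higher with Mmp12, Mmp13 and H2-Ab1. Its ratio was 2.58 for Mmp12, the macrophage elastase (3.93 at a gate value of 0.5), 2.61 for Mmp13, a collagenase, and 2.24 for H2-Ab1, an MHC class II chain. Ccl24 was higher with each of the 3 in 6 of 6 sets. Cells with H2-Ab1 or Mmp13 on were deeper, with medians of 3151 and 3176 UMIs against 1684 and 2276. Depth was close for Mmp12 (2764.5 and 2747). Ccl7 was lower with each of them in 6 of 6 sets (0.632, 0.820 and 0.565 times), though at a gate value of 0.5 its Mmp13 ratio in set 1 was 1.19. Ccl6 was at 0.687, 0.359 and 0.633 times in set 1, and its mean value was lower in 6 of 6 sets for Mmp13 only. Its Mmp13 ratio was 0.800 at a gate value of 0.5 and 0.692 thinned, and its H2-Ab1 ratio 0.395 at a gate value of 1.5. Nos2, the inducible nitric oxide synthase, was on in 20 macrophages, and Ccl24 stood at 7178 CPM there against 3076 (2.33 times, higher in 6 of 6 sets). That ratio was 1.39 at a gate value of 0.5 and 1.12 (0.842 to 1.45) without the 10 richest cells of each side, which leaves 10 cells with Nos2 on.

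Arg1 went with Ccl6 and Ccl2. Macrophages with Arg1 on (154 cells) held 1501 CPM of Ccl6 against 583 (2.57 times, 2.35 to 2.82), and 1.67 times without the cell with 302 UMIs. Ccl2 stood at 668 against 409 (1.63 times, 1.44 to 1.85). Both were higher in 6 of 6 sets, and depth was close, at medians of 2609 and 2802 UMIs. Ccl7 was 1.14 times higher with an interval of 0.984 to 1.33 that includes no difference. Its mean value was higher with Arg1 on in 6 of 6 sets, by 0.0403 to 0.342. Ccl24 was at 0.713 times in set 1 (0.671 to 0.756), but its mean value was lower with Arg1 in only 2 of 6 sets, and at a gate value of 0.5 the ratio was 1.09. Of the 962 genes, 7.80% were at least 2-fold higher with Arg1 on, Ccl6 among them, and 11.5% were lower, with 0 of the 4.

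Mrc1, the mannose receptor, marked the macrophages rich in Ccl7. With Mrc1 on (317 cells) Ccl7 stood at 574 CPM against 171, a ratio of 3.35 (2.85 to 3.95), and Ccl2 at 582 against 325 (1.79 times). Both were higher in 6 of 6 sets. With Leiden clusters in place of the gate, the ratios were 2.13 for Ccl7 and 0.931 for Ccl2 (0.846 to 1.02). Ccl24 was nearly even, at 3306 against 3105 (1.06 times), and its mean value was higher in 4 of 6 sets. Cells with Mrc1 on were deeper (medians 3420 and 2126 UMIs). With the chemokine counts thinned to equal depth and the Mrc1 call left at full depth, the Ccl24 ratio was 0.909. Of the 962 genes, 4.37% were at least 2-fold higher with Mrc1 on, Ccl7 among them, and 5.72% were lower, with 0 of the 4.

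Trem2, a lipid-sensing receptor, was on in 30 macrophages of set 1, with a median of 3452.5 UMIs against 2736 in the rest. These held 4834 CPM of Ccl6 against 595 in the rest, 8.12 times, and 4.05 times without the cell with 302 UMIs. Without the 10 richest cells of each side it was 1.66 times (1.18 to 2.26). The mean deposited value of Ccl6 was higher with Trem2 in 6 of 6 sets, by 0.402 to 1.64. Ccl24 stood at 1638 against 3292 (0.498 times), and was lower in 6 of 6 sets. Without the 10 richest cells of each side that ratio was 0.0328, and at a gate value of 1.5 it was 0.199. The 10 cells are a larger part of the 30 with Trem2 on than of the 583 with it off. The ratios without them therefore do not compare like parts of both sides. Gpnmb, often seen with Trem2 in lipid-laden macrophages, also went with less Ccl24 (0.663 times, lower in 6 of 6 sets, and 0.359 times without the 10 richest cells). Its Ccl6 ratio was 0.985 (1.62 at a gate value of 1.5), while the mean value of Ccl6 was higher in 6 of 6 sets. Gpnmb stood at 108 CPM in C1q macrophages and 119 in hepatoma cells, and the part of hepatoma RNA in this division was not tested. Macrophages with Gpnmb on were deeper, at medians of 3352 and 2651.5 UMIs. They numbered 89 against 524, so the 10 richest cells are a larger part of them too.

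The monocyte receptor Ccr2 was on in 71 C1q macrophages that did not pass the monocyte gate. Ccl24 was lower there, at 2003 CPM against 3403 (0.589 times), and lower in 6 of 6 sets. Ccl6 was 1.38 times higher (1.22 to 1.55), and its mean value was higher in 5 of 6 sets. Without the 10 richest cells of each side the ratios of Ccl24 and Ccl6 were 0.326 and 0.876, and at gate values of 0.5 and 1.5 that of Ccl6 was 2.16 and 2.14. For Ccl2 and Ccl7 the intervals of the ratios, 0.997 to 1.39 and 0.985 to 1.41, included no difference. The mean value of each was higher with Ccr2 on in 5 of 6 sets. Without the 10 richest cells of each side their ratios were 0.489 and 0.452. The 10 cells are a larger part of the 71 with Ccr2 on than of the 542 with it off. Spp1, osteopontin, went with more Ccl6 (1.65 times, higher in 6 of 6 sets, and 2.64 times at a gate value of 1.5). Spp1 stood at 267 CPM in C1q macrophages and 165 in hepatoma cells, and the part of hepatoma RNA was not tested. Il1b, interleukin-1 beta, went with less Ccl6 (0.448 times, lower in 6 of 6 sets). Cells with Ccr2, Spp1 or Il1b on were deeper, with medians of 3151, 3475.5 and 3420 UMIs against 2672, 2534 and 2269.5. Cd163, Chil3 and Ly6c2 were on in only 6, 4 and 2 macrophages, so no ratio is given for them.

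Single cells were then read for the ligands they held together. In C1q macrophages thinned to 1000 UMIs, 147 of 613 cells had Ccl2, 126 had Ccl7 and 78 had both, where the product of the shares gives 30.2 cells. That is 2.58 times the product. Ccl2 with Ccl6 and Ccl6 with Ccl7 were each at 1.28 times. For both of these pairs the product lay within the exact binomial interval of the observed share. It was 7.12% against 6.97 to 11.7%, and 6.10% against 5.83 to 10.2%. Every pair with Ccl24 fell short of the product, at 0.786 times with Ccl2 (79 cells), 0.772 with Ccl6 (96 cells) and 0.790 with Ccl7 (68 cells). In macrophages and monocytes (8 cells against 2.40) the pair of neighbouring genes, Ccl2 and Ccl7, had the highest ratio to its product. In fibroblasts it was seen in 6 cells against 2.70, and each other pair there in 0 or 1 cell. For Ccl2 with Ccl7 in fibroblasts the product, 3.51%, lay within the interval of 2.91 to 16.2%. Without thinning, 69.4% of macrophages with Ccl7 also had Ccl2.

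In the deposited values of all 6 sets, macrophages with only Ccl24 on were the most frequent combination, at 20.3 to 38.8% of C1q macrophages (median 32.1%). Ccl6 with Ccl24 followed at 13.4 to 21.2%, and Ccl6 alone was on in 3.70 to 14.8%. Ccl2 alone and Ccl7 alone were rare, at 0.64 to 1.98% and 0.435 to 2.45%. All 4 were on in 2.46 to 5.60% and none in 4.72 to 10.9%. Sets 4 and 6 had the lowest shares with Ccl24 alone (20.3 and 22.3%) and the highest with Ccl6 alone (10.4 and 14.8%).

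**Figure D4:**
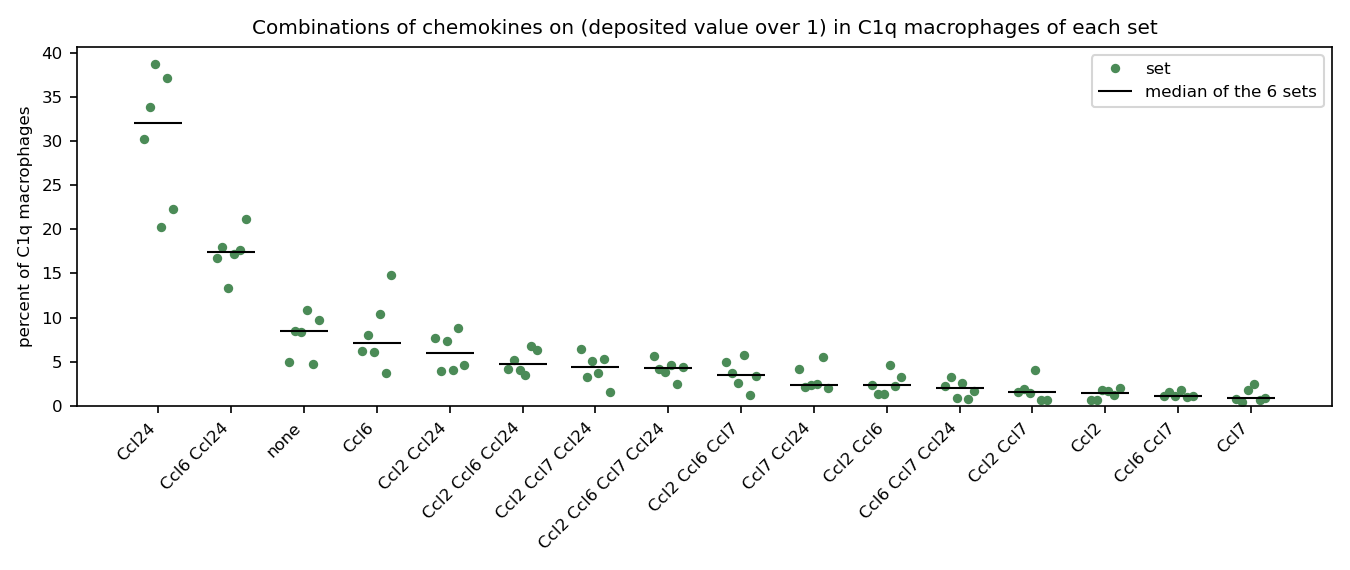
Share of C1q macrophages (y axis, percent) with each combination of the 4 chemokines above a deposited value of 1 (x axis, where every ligand named is on and the others are off). Points are the 6 sets and lines their medians. Ccl24 alone is the most frequent in each of the 6 sets, between 20.3 and 38.8%, and Ccl7 alone the rarest by its median.

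The genes whose levels were most like each chemokine were found over 11 classes and macrophage states of set 1, by Pearson correlation of log2 CPM plus 1 among 1752 genes. The points share a library, and some share cells, so r is a description. Ccl24 was most like Mrc1 (r = 0.987), Ear2, Mmp12, Mmp13 and Ccl12. Ccl6 was most like Wfdc17 (r = 0.984), Lyz2, Fcgr2b, Cd300ld and Itgam, genes of myeloid cells that include neutrophils. Among the genes most like Ccl2 were Ccl7 (r = 0.954), Plau, Cd93 and Zeb2. Among those most like Ccl7 were Ccl2, Sulf2 (r = 0.938), Cox4i2 and Hebp1. Across classes Mrc1 was thus the gene most like Ccl24, while within the macrophages Ccl24 hardly differed by Mrc1.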

How the data were processed

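One pooled table of 2000 genes and 53528 cells was used, with no column tied to a sample. Alignment with STAR 2.7.2b and UMI counting with PISA are given per the labels' protocols; the submitters' processing notes name GRCh38 and mm10. The deposited values are natural log values. In set 1 the UMI totals were recovered from each cell's lowest nonzero value, and totals ran from 1001 to 261833 UMIs (median 11099), of which the 2000 genes held 15.0%. Scrublet (scanpy 1.11.5, expected rate 6%) called 68 of 9370 cells (0.726%), which were left out of set 1 levels but not of the means over sets. Ratios carry exact conditional Poisson intervals (scipy 1.17.1), and thinning used 1 seeded draw. Gates and on calls were left at full depth when counts were thinned. The fold rule was tested on simulated data. The gate was settled once it was known which fixed markers the table held; Fn1, Hp and Lcn2 were left out of it because hepatoma cells held them. The 4 genes, the lists and the dividing genes were chosen with earlier results of these data known. Named genes were the members, the chemokine and receptor list, the dividing genes, the markers and the 5 genes most like each member, of which 1 gene is not reported here. Folds used at least 20 UMIs over both classes. Alternatives were the gate value, doublets, means over cells, thinning, Leiden clusters, the richest cells, a depth minimum and the sets.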

Additional observations from a re-analysis of the deposited data

Results flagged for a closer look

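The mean deposited value of Ccl2 in monocytes was 0.961 in set 1, apart from the other 5 sets at 0.631 to 0.736. The gap to the nearest set was large against the whole range of the 6 sets. Set 1 is also the only set whose values were not changed further, and the part of that in the gap was not tested. In set 1 the 10 monocytes richest in Ccl2 held 68.1% of the class's 260 Ccl2 UMIs. The mean value of Ccl2 in neutrophils was 0.119 in set 3, above the other sets at 0.0246 to 0.0537. Set 3 had 40 neutrophils, the fewest of the sets. Chance alone marks about 1 in 20 groups in this way, and every class of each chemokine was looked at.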

How the results depend on the processing

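The ratios of C1q macrophages over monocytes were recomputed under 8 to 10 settings in set 1 and as differences in each set. Ccl24 and Ccl7 stayed above 1 under each setting that gave a value. Without the 10 richest cells of each class they were 23.6 and 19.6, and with the cells of both marker kinds as monocytes 2.94 and 1.90. At a gate value of 1.5 the Ccl24 ratio was 5.58. Ccl2 was 0.803 at a gate value of 0.5, 0.811 at 1.5 and turned to 1.41 without the 10 richest cells; its differences were positive in sets 2, 3 and 4 (0.0914, 0.0535 and 0.226). Ccl6 was 0.638 and 0.659 at gate values of 0.5 and 1.5, 0.646 as a mean over cells, 0.605 thinned and 0.887 without the 10 richest cells, and its differences were positive in sets 4 and 6 (0.0696 and 0.212). The alternatives with the cells of both kinds and without the cell with 302 Ccl6 UMIs were added after seeing the data. Clusters named by the gate gave no monocyte cluster, so that setting has no value here. Among macrophage divisions, all 4 genes kept their direction under each setting for Cxcl9 and Vcam1. Ccl24 with Arg1 turned to 1.09 at a gate value of 0.5 and to differences of 0.299, 0.0799, 0.341 and 0.330 in sets 2, 4, 5 and 6. Ccl24 with Mrc1 turned to 0.914 at a gate value of 1.5, 0.898 as a mean over cells, 0.909 thinned, and -0.148 and -0.190 in sets 1 and 6, and with clusters Ccl2 and Ccl6 turned to 0.931 and 0.925. At a gate value of 0.5, Ccl2 with Mmp12 was 1.26, Ccl7 with Mmp13 1.19, Ccl7 and Ccl24 with Il1b 1.27 and 1.23, and Ccl2 with Spp1 0.922. Without the 10 richest cells, Ccl2 with Trem2 was 0.282 and with Spp1 0.793, and Ccl6 with Ccr2 was 0.876 and with Nos2 0.208. In each of these divisions the 10 cells are a larger part of the on side than of the off side. In single sets, Ccl6 turned with H2-Ab1 (0.0641 in set 4, 0.0612 in set 6), Mmp12 (0.0265 in set 4), Ccr2 (-0.132 in set 4) and Nos2 (-0.0231 in set 2). Ccl24 turned with Spp1 (0.0227, 0.0728 and 0.0592 in sets 2, 4 and 5) and Il1b (0.0991 and 0.399 in sets 3 and 4). With Gpnmb, Ccl2 turned to 1.22 at a gate value of 1.5 and to 0.0485, 0.0478, 0.187 and 0.148 in sets 2 to 5, and Ccl7 to 0.120, 0.0536 and 0.171 in sets 2, 3 and 5. The causes were not tested. No paired analysis was possible because no cell is tied to a group. Depth limits the smaller classes: 3 UMIs are worth 8.02 CPM in monocytes, 8.06 in neutrophils, 11.4 in dendritic cells and 11.5 in cells with both marker kinds.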
